A study of Mus musculus with 6 samples.

Results

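Small nucleolar RNA (snoRNA) genes were followed in retinas of SIRT6 wild-type (WT) and SIRT6-knockout (KO) mice. The members were all probe sets whose only gene symbol starts with Snora or Snord. They were 75 probe sets of 73 genes among 23521 probe sets with exactly 1 symbol, which belong to 22180 genes. The Snora symbols gave 28 probe sets of 26 genes and the Snord symbols 47 probe sets of 47 genes. RNA of whole retinas from 15-day-old mice of strain 129SvJ, 3 WT and 3 KO samples with no other treatment, had been measured with 1 Affymetrix whole-transcript array for each sample. The KO mice lack SIRT6, a NAD-dependent deacylase that acts on histone H3, and the labels name neither the allele nor a tissue-specific Cre. They also do not say whether a sample held 1 animal or several, so that p-values measure only the spread between these samples. Levels are given as log2 intensity.

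The genotype labels and the tissue label were checked first. Sirt6 itself had a mean level of 9.26 ± 0.11 in the WT group and 6.82 ± 0.34 in the KO group (SD, 3 samples each), which gives a log2 fold change of -2.45 (adjusted p = 0.032 from limma, Benjamini-Hochberg). The rod genes Pde6b, Gnat1, Nrl and Sag, which mark the most abundant retinal cell type, lay between 10.49 and 13.82 in the 6 samples. The arrays differed in spread: the interquartile range of all log2 levels was 2.48 in WT 2 and 2.60 in KO 2, against 2.85 in KO 3 and 2.96 to 3.07 in the other samples. KO 3 did not stand apart in its overall level, since the median difference of all tested probe sets between KO 3 and the WT mean was -0.02. Lens RNA was present in varying amount, with a summed linear level of Cryaa, Crybb1, Cryba1 and Mip between 11503 and 35409 in WT and between 9085 and 20747 in KO samples, and no lens marker was at 0.

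snoRNAs are short noncoding RNAs of the nucleolus that direct the chemical modification of ribosomal RNA by base pairing. The H/ACA class, which carries Snora symbols, guides the conversion of uridine to pseudouridine with the proteins Dkc1, Gar1, Nhp2 and Nop10. The C/D class, which carries Snord symbols, guides 2'-O-methylation of ribose with fibrillarin, Nop56, Nop58 and Snu13. A few members, such as Snord13, Snord22, Snord118 and the Snora73 pair, act in the maturation of ribosomal RNA by other means, such as the cutting of its precursor. Most mammalian snoRNAs lie in introns of protein-coding or long noncoding host genes and are trimmed out of the spliced intron, so that a host transcript and its snoRNA can reach different levels. Mature snoRNAs carry no poly(A) tail, while the labels give an oligo-dT primer for the first cDNA strand, and the part that this priming had in the values was not tested.

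The sequences of the snoRNAs themselves were not used here, but 2 of the 73 genes share bases with a microRNA hairpin in RefSeq (GRCm38.p6). These hairpins are shown because both snoRNAs stand out in the values below. Snora34, one of the 3 H/ACA members that varied most between samples, shares 73 bases with Mir1291 (chr15:98519762-98519878, minus strand). Snora19, the gene with a pair of probe sets of identical values, lies wholly within Mir3084-2 (chr19:60774329-60774397, minus strand) with 56 bases. The shared bases are in capitals, 5′ to 3′:
Mir1291 hairpin: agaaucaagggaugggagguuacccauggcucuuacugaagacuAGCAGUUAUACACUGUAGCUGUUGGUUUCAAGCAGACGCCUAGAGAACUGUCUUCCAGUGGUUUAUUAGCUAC
Mir3084-2 hairpin: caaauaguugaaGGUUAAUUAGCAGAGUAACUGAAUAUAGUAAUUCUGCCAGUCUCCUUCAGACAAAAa
The mature microRNAs of these hairpins follow, with the seed (bases 2 to 8) in capitals.
mmu-miR-1291: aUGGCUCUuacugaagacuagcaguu
mmu-miR-3084-5p: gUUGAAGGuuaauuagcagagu
mmu-miR-3084-3p: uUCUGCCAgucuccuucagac
The 3 seeds differ from each other. Of mmu-miR-1291, 7 of 26 bases lie in Snora34, while all 21 bases of mmu-miR-3084-3p and 16 of the 22 bases of mmu-miR-3084-5p lie in Snora19. Mir3084-1, another hairpin of chromosome 19, has the same sequence as Mir3084-2. The stretch shared with Snora19 has the letters ACA with 3 bases after them on the hairpin strand and not on the other strand. That is where the ACA box of the H/ACA class lies. Among 718 RefSeq mouse hairpins long enough for the same window, 2.09% had ACA at this place on the hairpin strand and 2.37% on the other. The gene table gives no strand for the snoRNAs, and 0 probe sets named Mir1291 or Mir3084.

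snoRNA levels were mostly higher in KO than in WT retinas, and this difference came largely from 1 KO sample. The KO mean was above the WT mean in 71 of 75 probe sets (94.7%), against 48.2% of all tested probe sets. The median log2 fold change was 0.61, with a middle range of 0.34 to 0.86 and limits of -0.35 and 1.39, beside a median of -0.01 over all tested probe sets. Without KO 3 the median fell to 0.17, and the KO mean was then higher in 63 of 75 probe sets. In bulk retina, fewer cells of a type and less RNA per cell cannot be told apart.

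After adjustment over all tested probe sets, 0 of 75 snoRNA probe sets passed at 0.05 by limma, against 0.00425% of all probe sets, which is Sirt6 alone. At an unadjusted p under 0.05, 15 were higher in KO (5 Snora and 10 Snord), or 20% of the members against 0.897% of all probe sets. None was lower, against 0.961% of all probe sets. In 13 probe sets (7 Snora and 6 Snord, 17.3%) all 3 KO values lay above all 3 WT values, against 1.98% of all. In 0 of 75 they lay below, against 3.67% of all. The methods' t-test at the same threshold gave 2 higher snoRNA probe sets (2.67%), against 0.85% of all probe sets, and 0 after adjustment.

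The count of 15 depended on single samples. Without KO 3 it was 6 (4 Snora and 2 Snord), against 0.574% of all probe sets, with 0 lower against 0.548%. Without WT 3 it was 9, against 0.638%, and without KO 1 it was 27, against 1.59%. Fitting the replicate number as a block gave 34 higher probe sets (15 Snora and 19 Snord), or 45.3% of the members against 3.77% of all, 0 lower against 3.54%, and 0 after adjustment. The 34 held all 15 and 19 further probe sets. Without using KO 3 at all, KO 1 and KO 2 both lay above all 3 WT samples in 14 probe sets (7 Snora and 7 Snord, 18.7%), against 4.87% of all probe sets, and both lay below in 0, against 5.61% of all.

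**Figure D1:**
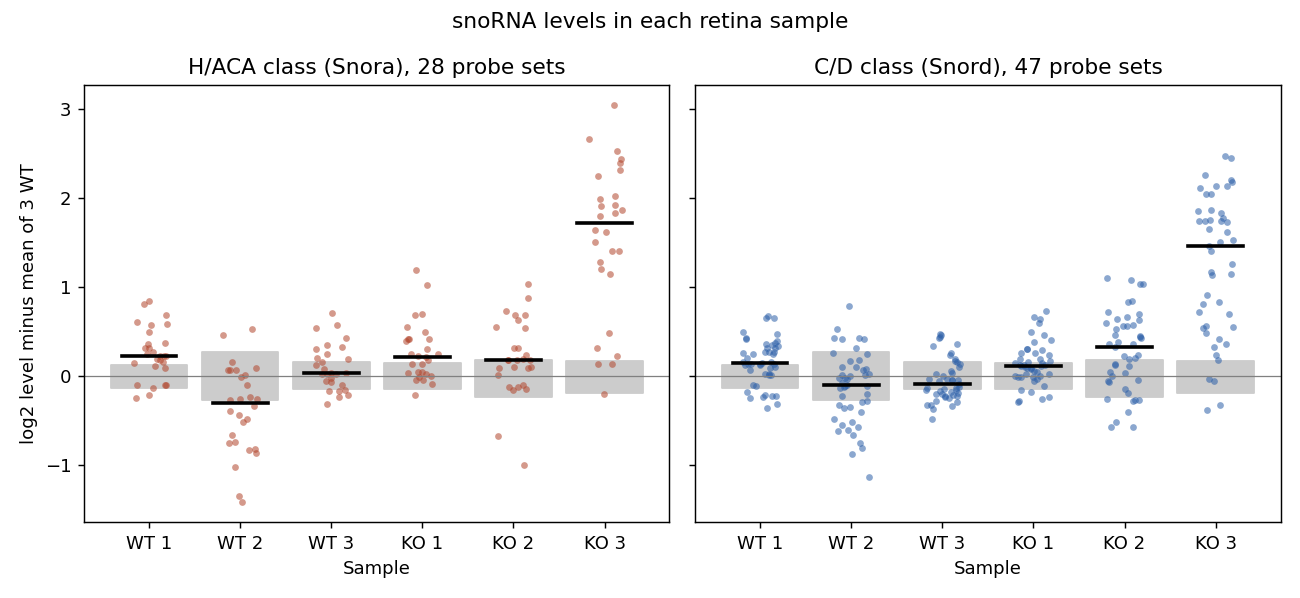
Each point is 1 snoRNA probe set, plotted as its log2 level minus the mean of the 3 WT samples (vertical axis) in each of the 6 retina samples (horizontal axis), for the H/ACA class (left, 28 probe sets) and the C/D class (right, 47 probe sets). Black bars are medians and grey boxes the middle range of all 23521 tested probe sets. KO 3 stands at a median of 1.72 in the H/ACA and 1.46 in the C/D class, while the other 5 samples have medians between -0.30 and 0.33.

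The sample pattern was shared by most members. Relative to the WT mean, the median snoRNA probe set stood at 0.19 in WT 1, -0.13 in WT 2, -0.03 in WT 3, 0.14 in KO 1, 0.21 in KO 2 and 1.53 in KO 3. KO 3 was thus far above the rest, and the other KO samples were close to WT 1. KO 3 was the highest of the 6 samples in 60 of 75 probe sets (80%), against 14.7% of all tested probe sets. WT 2 was the lowest in 39 of 75 (52%), against 25.3% of all. The snoRNA profile of KO 3 also had the lowest mean correlation with the other 5 samples, 0.92 over the 75 probe sets, against 0.93 to 0.97 in the other samples. Over all rows of the table the value for KO 3 was 0.97, within the range of the other arrays (0.95 to 0.97).

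Samples that share a replicate number also share a replicate tag in the labels, and the difference within each such pair was unequal. In pair 1 the median snoRNA difference (KO minus WT) was -0.01, and KO was higher in 35 of 75 probe sets. In pair 2 it was 0.39, with KO higher in 62. In pair 3 it was 1.55, with KO higher in 70. Pair 1 showed no common direction, while pairs 2 and 3 did, and in pair 2 the WT sample was the one that was lowest for most snoRNAs. Over all tested probe sets the 3 medians were 0.01, -0.02 and -0.02. KO was higher in all 3 pairs in 25 of 75 snoRNA probe sets (10 Snora and 15 Snord, 33.3%), against 13.5% of all.

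**Figure D2:**
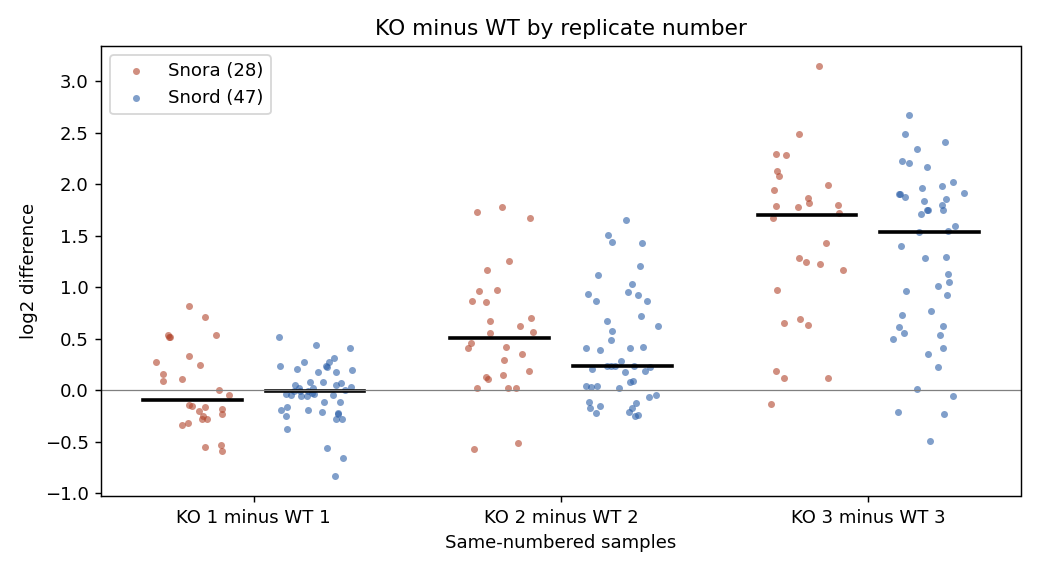
The log2 difference between KO and WT samples of the same replicate number (vertical axis) is drawn for each snoRNA probe set, with Snora in red and Snord in blue and black bars at the medians. The medians lie at -0.09 and -0.01 in pair 1, at 0.51 and 0.24 in pair 2, and at 1.70 and 1.54 in pair 3.

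Among the H/ACA members, the 5 with the smallest unadjusted p were all higher in KO without overlap. Snora75, which lies in an intron of the nucleolin gene Ncl, had levels of 8.79, 7.67 and 8.76 in WT 1 to 3 and of 9.60, 9.45 and 10.05 in KO 1 to 3. All 3 KO samples were above the highest WT sample, and WT 2 was the low one. The log2 fold change was 1.29 (standard error 0.32), with an unadjusted p of 0.0032 and an adjusted p of 0.9999 from limma (two-sided exact permutation test over the 6 samples, p = 0.10, below which 3 against 3 cannot go). Without KO 3 the log2 fold change was 1.12 (unadjusted p = 0.018 from limma), so that Snora75 also passed without that sample.

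Snora74a, in the noncoding host Snhg4, had levels of 8.11, 7.53 and 7.75 in WT and of 8.82, 8.49 and 10.24 in KO. KO 3 was the highest by more than a log2 unit, and KO 1 and KO 2 also stood above every WT sample. The log2 fold change was 1.39 (standard error 0.41, unadjusted p = 0.0094 from limma), the largest of the 75, and it was 0.86 without KO 3 (unadjusted p = 0.0093). Snora20, in an intron of the chaperonin gene Tcp1, had 7.00, 6.76 and 6.56 in WT and 7.27, 7.32 and 8.28 in KO, which gave a log2 fold change of 0.85. Snora30, in an intron of the chromatin remodeller gene Srcap, had 8.50, 8.36 and 8.19 in WT and 8.66, 8.99 and 9.97 in KO, also 0.85. In both, the step from WT to KO 1 was small and KO 3 was the outermost value. Snora35, which lies in an intron of the serotonin receptor gene Htr2c, had 6.47, 6.70 and 6.63 in WT and 7.00, 7.16 and 6.82 in KO, which gave a log2 fold change of 0.40 (standard error 0.17, unadjusted p = 0.044 from limma). Here KO 2 was the highest sample and KO 3 the lowest of the KO samples.

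Among the C/D members with the smallest p, Snord11, Snord111 and Snord65 were separated without overlap as well. Snord11, in an intron of Nop58, had 8.67, 8.74 and 8.30 in WT and 8.98, 9.42 and 10.71 in KO, which gave a log2 fold change of 1.13 (standard error 0.40, unadjusted p = 0.021 from limma). It was 0.63 without KO 3 (unadjusted p = 0.032). Snord111, in an intron of the splicing factor gene Sf3b3, had 5.55, 5.22 and 5.78 in WT and 5.98, 6.09 and 7.37 in KO, which gave a log2 fold change of 0.97. Its KO 1 and KO 2 values lay close above the highest WT sample. Snord65, in the noncoding gene 2410006H16Rik, had 8.67, 8.39 and 8.47 in WT and 8.75, 9.34 and 10.38 in KO, which gave a log2 fold change of 0.98 with KO 1 just above WT 1.

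Snord13, which acts in the acetylation of a cytidine of the small-subunit ribosomal RNA and is transcribed from a promoter of its own, had 11.54, 10.26 and 10.84 in WT and 11.38, 11.92 and 12.71 in KO. KO 1 lay below WT 1, so that the groups overlapped. The log2 fold change was 1.12 (standard error 0.40, unadjusted p = 0.021 from limma) and 0.77 without KO 3 (unadjusted p = 0.088). Snord73b, in an intron of the ribosomal protein gene Rps3a1, overlapped in the same way, with 9.21, 8.45 and 8.75 in WT and 8.96, 9.89 and 10.46 in KO and a log2 fold change of 0.97. In 3 further C/D members the groups did not overlap: Snord16a (log2 fold change 0.92), Snord1b (1.23) and Snord70 (1.14). In Snord1b the gap was very small, with KO 1 at 5.280 beside WT 1 at 5.276.

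**Figure D3:**
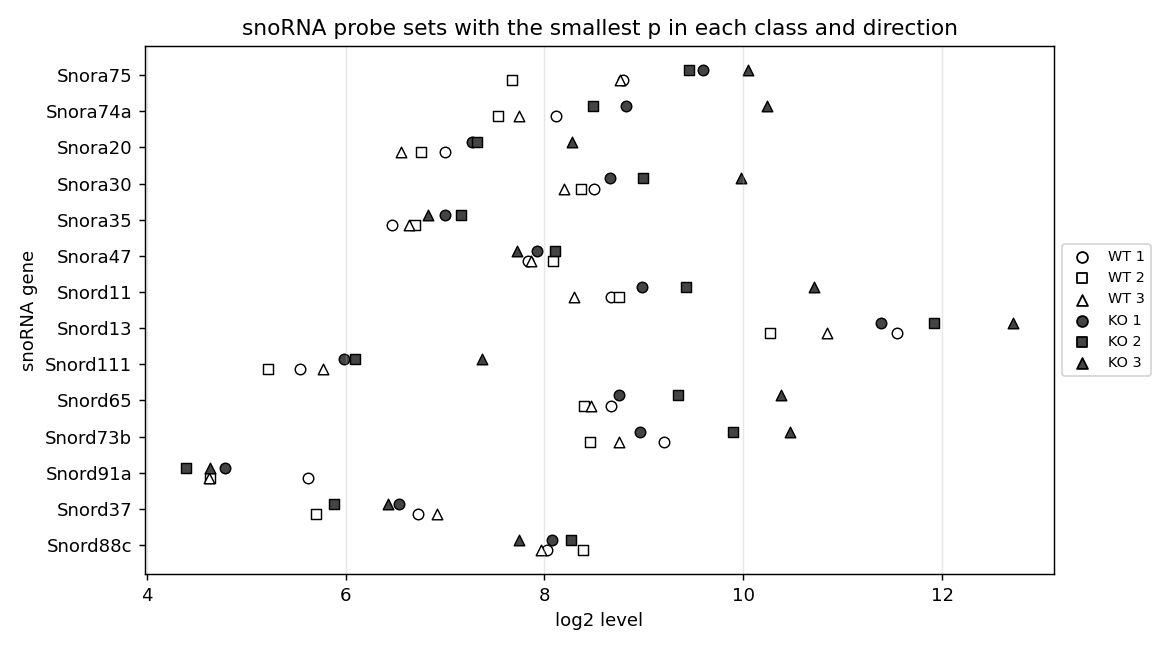
The log2 level (horizontal axis) of the snoRNA probe sets with the smallest unadjusted p in each class and direction is drawn for each WT (open) and KO (filled) sample, and the marker shape gives the replicate number. Snora75 has all KO samples between 9.45 and 10.05 and all WT samples at or below 8.79, while in Snord11, Snord111 and Snora74a KO 3 stands apart from the other KO samples.

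The Snora73 pair, Snord22 and Snord118, which act in the cutting of the ribosomal RNA precursor, had KO means above the WT means, and in each KO 3 was the highest sample. Snora73a and Snora73b, which lie in the noncoding host Snhg3 and act on the small-subunit ribosomal RNA, had log2 fold changes of 0.70 and 0.57. Snora73a had 9.60, 9.26 and 9.20 in WT and 9.40, 9.55 and 11.19 in KO, and Snora73b had 8.71, 8.18 and 8.64 in WT and 8.42, 8.37 and 10.44 in KO. In both, KO 1 and KO 2 lay within the WT range. Without KO 3 the values were 0.13 and -0.11, so that the sign of Snora73b turned. Snord22, which acts in small-subunit maturation and lies in Snhg1, had 7.91, 7.17 and 7.63 in WT and 7.68, 8.29 and 9.84 in KO (log2 fold change 1.03). Snord118, which is needed for the large-subunit ribosomal RNAs and has its own promoter, had 7.49, 7.58 and 7.36 in WT and 7.57, 7.42 and 8.28 in KO (0.28). Of these 4, none passed at an unadjusted p under 0.05 by limma without the block, and Snord22 passed with the replicate block (unadjusted p = 0.024 against 0.066 without it). Snord35a, in an intron of Rpl13a, had a log2 fold change of 0.59 and Snord87, in Snhg6, one of 0.68, and these were 0.02 and -0.01 without KO 3.

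Of the 6 members with the highest levels in their class, 5 had log2 fold changes below the median of 0.61. Snora33 (17239753), at 12.69, 12.67 and 12.43 in WT and 12.55, 12.78 and 13.08 in KO, had a log2 fold change of 0.21. Snord104 had 12.05, 12.61 and 12.20 in WT and 12.28, 12.65 and 12.61 in KO, which gave a log2 fold change of 0.23, and its highest sample was KO 2. Snord82 had 12.06, 11.94 and 11.81 in WT and 11.78, 12.18 and 12.43 in KO (0.19). In all 3 the genotypes overlapped. Snord89 stood at 11.90 to 12.18 in WT and at 12.07, 12.10 and 13.19 in KO (0.41). Snora21 and Snora16a, the next H/ACA members by level, had log2 fold changes of 0.50 and 0.79, and KO 1 and KO 2 of both lay within the WT range.

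Because KO 3 stood far above the rest in most members, a choice by spread favours members in which it is the highest sample. The members with the largest spread over the 6 samples had KO 3 as the highest sample. WT 2 was the lowest in the H/ACA ones and, among the C/D ones, in Snord61 and Snord1b but not in Snord15a. Snora34 had 9.89, 7.73 and 9.62 in WT and 9.30, 9.40 and 11.75 in KO. Without WT 2 and KO 3 its KO mean was below its WT mean, with a log2 fold change of -0.41 in place of 1.07. Snora23, in an intron of the importin gene Ipo7, had 10.61, 8.35 and 10.34 in WT and 10.46, 8.77 and 11.56 in KO, so that both samples numbered 2 were low. Its log2 fold change of 0.50 was -0.86 without WT 2 and KO 3. Snora31, in an intron of Tpt1, had 9.19, 8.13 and 8.52 in WT and 8.65, 9.30 and 11.66 in KO, with KO 3 at 3.05 above the WT mean, the largest such distance of the 75. Among the C/D members Snord61 had 7.79, 6.84 and 7.68 in WT and 7.82, 6.93 and 9.64 in KO, again low in both samples numbered 2. Snord15a had 8.66, 8.82 and 8.44 in WT and 8.64, 8.76 and 11.11 in KO, where 5 samples lay close together and KO 3 stood alone. Snord1b had 5.28, 5.05 and 5.12 in WT and 5.28, 6.25 and 7.61 in KO. Snora34 (unadjusted p = 0.184), Snora31 (0.0999) and Snora16a (0.168) did not pass by limma, and with the replicate block they did (unadjusted p = 0.040, 0.049 and 0.048).

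In 4 members the KO mean was below the WT mean, none past the unadjusted threshold of 0.05 by limma. Snord91a had 5.62, 4.64 and 4.63 in WT and 4.79, 4.39 and 4.64 in KO, which gave a log2 fold change of -0.35, with WT 1 apart from the other 5 samples. Snord37, in an intron of the elongation factor gene Eef2, had 6.73, 5.70 and 6.92 in WT and 6.54, 5.88 and 6.42 in KO (-0.17). Snord88c (-0.09) and Snora47 (-0.01) had KO 3 as their lowest sample, at 7.75 and 7.73. These were 2 of the 3 probe sets in which KO 3 was the lowest of all samples, beside 60 in which it was the highest.

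The H/ACA and C/D classes both had the high values in KO 3. The median log2 fold change was 0.73 for Snora and 0.58 for Snord, a difference of 0.15. Without WT 2 the Snora median was 0.43 and the Snord median 0.55, so that the difference turned to -0.12. Without KO 3 the medians were 0.19 and 0.16. The median deviation from the 6-sample mean of Snora, minus that of Snord, was -0.0049, -0.36 and 0.14 in WT 1 to 3 and 0.02, -0.14 and 0.15 in KO 1 to 3. The genotypes overlapped in this contrast, and the 2 samples with the narrow arrays, WT 2 and KO 2, were the lowest in it. WT 2 was the lowest sample in 18 of 28 Snora probe sets (64.3%) and in 21 of 47 Snord probe sets (44.7%). KO 3 was the highest in 23 of 28 (82.1%) and in 37 of 47 (78.7%).

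The size of the KO 3 shift varied with the level of the member. The 10 probe sets with a mean level under 6 stood at a median of 0.64 in KO 3 relative to the WT mean, the 19 between 6 and 8 at 0.84, the 28 between 8 and 10 at 1.81 and the 18 at 10 or above at 1.39. The corresponding medians for KO 1 were 0.31, 0.19, 0.14 and 0.02, which run from the dimmest to the brightest group in the other direction. Those for KO 2 were 0.09, 0.18, 0.37 and 0.21, smaller than in KO 3 and likewise largest between 8 and 10. Across the 75 probe sets, which share the same 6 arrays, the Pearson correlation of mean level with the KO 3 shift was 0.22.

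Of the 73 genes, 2 had 2 probe sets. Those of Snora19 (17363663 and 17366118) held identical values, 5.78, 5.94 and 5.90 in WT and 6.29, 5.96 and 6.01 in KO, with a log2 fold change of 0.22. The genotypes did not overlap, but the gap was very small, with KO 2 at 5.959 beside WT 2 at 5.939. This 1 measurement was counted once too often among the 13 above. The same holds for the 14 with KO 1 and KO 2 above all WT samples and the 25 higher in all 3 pairs. Those of Snora33 differed in level and in sample pattern. The dimmer one (17239751) had 6.84, 5.52 and 6.65 in WT and 6.59, 5.67 and 8.59 in KO, which gave a log2 fold change of 0.61 that was -0.21 without KO 3.

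Host genes gave a comparison within the same loci. By RefSeq spans (GRCm38.p6), 72 of the 75 probe sets lay inside a protein-coding or long noncoding gene, and Snord13, Snord89 and Snord118 lay in none. The table gives no strand, so that a host here is any such gene around the snoRNA. For 55 snoRNA genes with exactly 1 host and that host measured (41 hosts, 34 protein-coding and 7 noncoding), the snoRNA had the larger log2 fold change in 44 and the larger KO 3 shift in 47. The median log2 fold change was 0.70 over these snoRNAs and 0.17 over the 41 hosts, and the median KO 3 shift was 1.62 against 0.27. The KO mean was above the WT mean in 34 of 41 hosts, against 48.2% of all tested probe sets. Of the hosts 1, 2410006H16Rik (0.59, unadjusted p = 0.042 from limma), was higher past the unadjusted threshold of 0.05, beside 0.897% of all probe sets. Hosts and snoRNAs thus had mean differences mostly of the same sign and of different size.

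**Figure D4:**
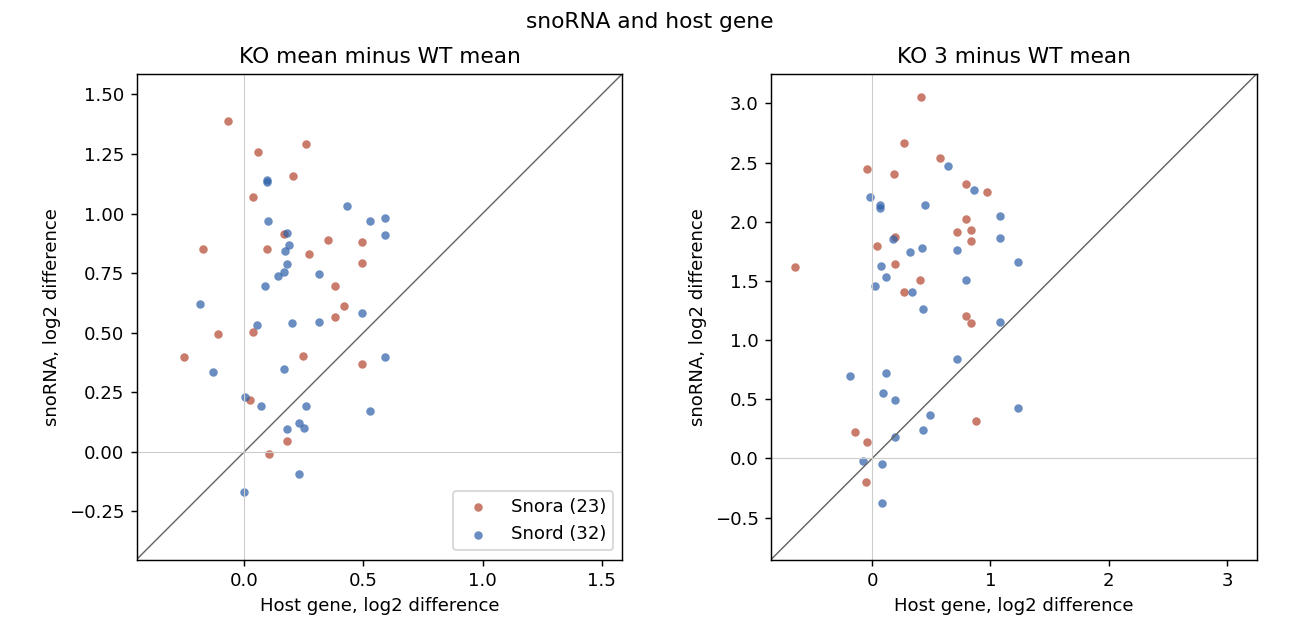
Each point is 1 snoRNA gene with its measured host (55 pairs, Snora in red and Snord in blue), with the host's log2 difference on the horizontal and the snoRNA's on the vertical axis, for KO mean minus WT mean (left) and KO 3 minus WT mean (right). Grey diagonal lines mark equality. In the left panel 44 points and in the right panel 47 points lie above the line.

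Members of the same host did not move by the same amount. In Ncl (host log2 fold change 0.26), Snora75 stood at 1.29 and Snord82 at 0.19. In Nop58 (0.09), Snord70 and Snord11 stood at 1.14 and 1.13. The Ncl pair was thus far apart and the Nop58 pair close together. The noncoding gene Snhg12 (0.49) holds Snora44 (0.88), Snora16a (0.79), Snord99 (0.58) and Snora61 (0.37). In 2410006H16Rik, Snord65 (0.98) and Snord49a (0.91) stood above the host and Snord49b (0.40) below it. In Rps3a1 (0.53), Snord73b stood at 0.97 and Snord73a at 0.17, and in the nucleolar GTPase gene Gnl3 (0.18), Snord69 stood at 0.79 and Snord19 at 0.09. Snora74a (1.39) had the largest difference of all members beside a host at -0.07. Across the 55 pairs, which share the 6 arrays and in part a host, the Pearson correlation was 0.08 for the log2 fold changes and 0.22 for the KO 3 shifts.

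The genes of the proteins that bind snoRNAs were set beside the members. Of the C/D proteins 3 of 4 were measured, with a median log2 fold change of 0.09, and of the H/ACA proteins 4 of 4, with a median of 0.28. In both lists 0 genes passed at an unadjusted p under 0.05 in either direction by limma. Over all tested probe sets 0.897% were higher and 0.961% lower, so that 0 in lists this short says little about these genes. Nop10 had 10.25, 10.24 and 10.28 in WT and 10.28, 10.32 and 11.14 in KO, and Nhp2 had 8.10, 7.63 and 8.09 in WT and 8.20, 7.69 and 8.83 in KO. KO 3 was thus the high sample in these small H/ACA proteins too, while Dkc1, the pseudouridine synthase, had 8.39 in KO 3 beside 7.99 to 8.73 in WT. Of 12 assembly and transport factors 11 were measured, 0 passed, and the median was -0.02. Of 50 listed host genes 39 were measured, 1 was higher (Snhg5, 0.65, unadjusted p = 0.021 from limma), 0 were lower, and the median was 0.17.

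Other small RNA classes on the array differed in whether they had the KO 3 pattern. The 5 small Cajal body RNAs (Scarna), which guide the modification of spliceosomal RNAs with the same proteins, had a median log2 fold change of 0.60 and a median KO 3 shift of 1.38, 0 of them past an unadjusted p of 0.05. Scarna10 had 8.93, 8.68 and 9.11 in WT and 9.20, 8.94 and 10.90 in KO, so that KO 3 stood apart there too. Without KO 3 the median of the list was 0.05. Rnu3a, a U3 RNA of the C/D type that is named outside the Snord series, had 5.81, 5.66 and 6.43 in WT and 6.73, 6.75 and 9.20 in KO. Its groups did not overlap, its log2 fold change was 1.59 (standard error 0.61, unadjusted p = 0.029 from limma), and it was 0.77 without KO 3. Of the other Rnu genes, Rnu12, a minor spliceosome RNA, had a log2 fold change of 0.36, Rnu11 one of 0.09 and Rnu5g one of -0.02. The 484 microRNA genes had a median of 0.01 and a median KO 3 shift of -0.11, and so did not show the KO 3 pattern as a class. Of these 484, 10 genes were higher and 5 lower at an unadjusted p under 0.05 by limma. Over all tested probe sets the shares were 0.897% higher and 0.961% lower.

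The non-snoRNA probe sets most like the snoRNA pattern were ranked by their Pearson correlation with the per-sample median of the 75 probe sets over the 6 samples. The first 5 were Med24 (0.996), Rpsa (0.988), Gm13981 (0.988), Taf1d (0.987) and Olfr1283 (0.987). RefSeq places 1 snoRNA gene inside Med24, 3 inside Rpsa and 6 inside Taf1d, and none inside the other two, beside 2.05% of 22139 tested genes with at least 1. Taf1d had 10.81, 10.49 and 10.56 in WT and 10.90, 10.78 and 12.50 in KO, the same shape as the members, with KO 3 apart. In each of the 5, KO 3 was the highest sample. This followed from the ranking, because KO 3 alone stood far out in the pattern used for it, and the correlations rest largely on that sample. Olfr1283 was dim, at 3.48 to 4.01 in the 6 samples, beside a lowest mean level of 3.18 over all tested probe sets.

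Markers of other cells were set beside the KO 3 shift. The summed linear level of the myelin genes Mbp and Mobp (2 of 3 measured) was 302 to 379 in WT and 436, 488 and 559 in KO 1 to 3. That of the vessel genes Pecam1 and Cldn5 (2 of 2) was 381 to 695 in WT and 489, 456 and 777 in KO 1 to 3, with the highest value in KO 3. By gene, Cldn5 was highest in KO 3 and Pecam1 in WT 3 (log2 level 8.46 beside 8.41 in KO 3). That of the rod genes (4 of 5) was 32376 to 33076 in WT and 30529 in KO 3, the lowest of all samples. Such linear sums weigh the brightest genes most. Of the rod genes, Pde6b was lowest in KO 3 and Gnat1 had a log2 level of 13.58 in both KO 2 and KO 3. Nrl and Sag were lowest in WT 2. The sums of bipolar genes (3 of 4) and amacrine genes (2 of 3) were lowest in KO 3 as well. They stood at 3133 beside 3807 to 4557 and at 864 beside 946 to 1202 in the other samples. The bipolar gene Grm6 alone was lowest in KO 1. The sum of pigment epithelium genes (3 of 3) was highest in KO 3, at 9122 beside 5655 to 8499, while Rlbp1 alone was highest in WT 1. The sum of the cone genes (4 of 4) was lowest in KO 3, at 9565 beside 9874 to 12849. By gene, only Opn1sw was lowest in KO 3, while Arr3 was lowest in KO 1 and Opn1mw and Gnat2 in WT 2. For the sums of the horizontal, ganglion, Müller glia and lens genes KO 3 lay within the range of the other samples. By gene, Calb1 (horizontal) and Sncg (ganglion) were highest in KO 3. Onecut1 (horizontal), Pou4f1 (ganglion) and Glul (Müller glia) were lowest in it. No marker was at 0, and the part of these cells in the snoRNA levels was not tested.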

How the data were processed

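Affymetrix whole-transcript arrays had measured RNA from the retinas of 3 WT and 3 KO samples. The authors processed the arrays with RMA and deposited intensities of 41345 probe sets on a linear scale, so log2 was taken before every test. The package version, the annotation and the genome build are not given in the sources used here. Symbols came from the platform annotation: 23521 probe sets had 1 symbol, 1820 several and 16004 none. Probe sets with several symbols, 43 of them with a Snora or Snord symbol, were left out.

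KO and WT were compared in R 4.3.3 with limma 3.58.1 (linear fit with eBayes moderation) over all 23521 probe sets, two-sided, without covariates or a filter on low values, at a Benjamini-Hochberg adjusted p of 0.05. The methods' t-test was run on the log2 values. Members, lists and tests were chosen with earlier results of these data known. The genes named are, in each class, the 5 smallest p per direction, the 3 highest levels, the 3 largest SDs, members of known role, genes with 2 probe sets, and the past-threshold members and best correlates described; other members named beside them (Snord16a, Snord1b, Snord70 and those listed by host, for example) were chosen after their values were seen.

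Same-numbered WT and KO samples carry the same replicate tag in the labels. Their deviations from the group means correlated at 0.63, 0.74 and 0.19 over all probe sets for numbers 1 to 3. On both grounds the numbers were taken to pair the samples for the pair differences and the replicate block only. The fit reported used no pairing, so its counts, standard errors and p-values are unpaired. The correlations did not single out pair 3, since WT 3 correlated more with KO 1 (0.51) and WT 1 gave 0.12 with KO 3. Over the snoRNA probe sets alone number 1 gave -0.16. The fit was tested on simulated data, with 50 changed probe sets at each size of change. After adjustment it recovered 0% of log2 changes of 0.5, 10% of changes of 1 and 94% of changes of 2. A count of 0 after adjustment is therefore no sign that changes of 1 or less are absent. Depth does not apply to arrays, and their number limits the precision. Alternatives were the replicate block, the methods' t-test, other normalizations, filters, priors and weights, the interquartile range as a covariate, linear values, and leaving out samples. Leaving out KO 3 and WT 2 together was added after seeing the data.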

Additional observations from a re-analysis of the deposited data

How the results depend on the processing

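No snoRNA probe set passed after adjustment under any alternative, and the lowest adjusted p of a named one was 0.105, for Snora75 by limma with array weights. These weights were 19.2 for WT 1 and between 0.15 (WT 2) and 1.30 (WT 3) for the other samples, so that this fit leaned mostly on 1 WT sample. The count of snoRNA probe sets higher in KO at an unadjusted p under 0.05 was 15. It was 34 with the replicate block (3.77% of all probe sets higher), 35 with array weights (9.58% of all, in an estimation that stopped before it converged), 2 by the methods' t-test (0.85%), 2 on linear values (0.646%) and 7 without both replicates numbered 2 (3.54%), beside 0.897% in the fit reported. Leaving out single samples gave 6 (without KO 3, 0.574% of all) to 27 (without KO 1, 1.59%), with the largest share of all, 5.12%, without WT 2, where 10 were higher. The count lower was 0, beside 226 of all 23521 probe sets. It was 2 under array weights (2283 of all) and 1 without both replicates numbered 2 (647 of all). It was 0 to 1 when single samples were left out (1 without WT 2, beside 823 of all). An alternative chosen after seeing the data left out KO 3 and WT 2 together. There 6 were higher (3.39% of all) and 1 was lower (718 of all 23521). The Snora median was then 0.11 in place of 0.73, and the Snora median minus the Snord median was -0.070 in place of 0.15. Leaving out single samples moved this last difference between -0.12 and 0.25. The cause of these changes was not tested.

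Of 35 named log2 fold changes, 12 changed sign under some alternative. Snora47 was 0.036 with array weights. Leaving out single samples gave -0.10 to 0.087 for Snora47, -0.54 to 0.067 for Snord37, -0.21 to 0.047 for Snord88c, -0.21 to 1.24 for Snora23, -0.061 to 1.30 for Snord61, -0.11 to 0.92 for Snora73b, -0.0068 to 1.11 for Snord87 and -0.21 to 1.25 for the dimmer Snora33 probe set. Without KO 3 and WT 2 together, the log2 fold changes were 0.17 for Snora47, 0.18 for Snord88c, -0.0094 for Snora21, -0.20 for Snora16a, -0.41 for Snora34, -0.86 for Snora23, -0.36 for Snord61, -0.28 for Snora73b, -0.078 for Snord35a, -0.015 for Snord87 and -0.62 for the dimmer Snora33 probe set. The replicate block changed no call after adjustment. At the unadjusted threshold it added 19 snoRNA probe sets and lost 0, and of the named ones it added Snora31, Snora34, Snora16a and Snord22.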

Other observations

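Another 43 probe sets carry a Snora or Snord symbol beside other symbols and belong to no comparison above. Of these, 16 are Snord116 probe sets with identical values, which count as 1 measurement. The Snord116 level was high, at 13.15 over the 6 samples, its log2 fold change was 0.05, and relative to the WT mean the samples stood at -0.08, 0.18 and -0.10 in WT 1 to 3 and at -0.11, 0.19 and 0.07 in KO 1 to 3, so that the 2 samples numbered 2 were the highest and KO 3 did not stand apart. The other 27 had a median log2 fold change of 0.39, with a KO mean above the WT mean in 25 and KO 3 as the highest sample in 22. At an unadjusted p under 0.05 by limma, 4 of these 27 were higher and 0 lower. The share higher was 0.897% over the 23521 tested probe sets and 0.779% over all 41345.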
